A study of Homo sapiens with 6 samples.

Results

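The replication-independent histone variants measured here were 10 genes, chosen by name and matched to the gene symbols of the count files, of which 9 are described: H2AFZ, H2AFV, H2AFX, H2AFY, H2AFY2, H2AFJ, H3F3A, H3F3B and H1FX. The symbols are the older ones, and the current symbols are given at each gene. All 10 were found among 60609 genes in the files, and 8 of the 10 were abundant enough to be tested, among 19114 genes tested. RNA came from K562, an established human myeloid leukaemia cell line with erythroid features, and poly(A)-selected RNA was sequenced in 6 libraries. Every library came from cells whose endogenous EP400 carries a dTAG, a tag that lets the small molecule dTAGV-1 direct the protein to degradation, and every culture received 500 nM dTAGV-1 for 24 h. In 3 libraries (WT) the cells also expressed exogenous WT EP400, and in 3 libraries (Delta-TRRAP) they expressed exogenous Delta-TRRAP EP400, from which the region that holds TRRAP in the TIP60 complex was deleted. Both transgenes stood at the AAVS1 locus. Each complemented line was a clone according to the methods of the study, so the effect of the clone and that of the deletion cannot be told apart.

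Most histones are made from genes that are switched on in S phase and whose mRNAs end in a stem-loop without a poly(A) tail. Histone variants are made outside S phase as well, mostly from polyadenylated mRNAs, and are placed into chromatin by dedicated chaperones and remodellers. EP400 is the ATPase of TIP60, which exchanges H2A for the variant H2A.Z and acetylates histones, so the genes that encode H2A.Z supply a substrate of the complex under study. The comparison asked how the transcripts of the variants stood when TRRAP could not be held in the complex.

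Total counts in genes were 39966818 to 42616061 in the WT libraries, against 35076835 to 38491513 in the Delta-TRRAP libraries. EP400 itself had a log2 fold change (Delta-TRRAP over WT) of 0.14 ± 0.11 (SE) at an adjusted p of 0.272. That count adds tagged locus and transgene and does not measure the protein. The labels call K562 a lymphoblast line. Of the erythroid and myeloid markers 10 of 10 were detected, with a summed normalized count of 227600 to 230000 in WT, against 137600 to 142400 in Delta-TRRAP. Lymphoid markers summed to 487.4 to 498.5 in WT, against 420.7 to 461.2 in Delta-TRRAP, and MS4A1 was at 0 in every library. CD3D made most of that sum, with 428.6 to 439.3 in WT, against 374.3 to 409.4 in Delta-TRRAP. Fibroblast markers summed to 35.46 to 56.98 in WT, against 909.7 to 971.9 in Delta-TRRAP, of which COL1A2 made most, while LUM was at 0 throughout. Epithelial markers summed to 6586 to 7411 in WT, against 2346 to 2495 in Delta-TRRAP, nearly all from EPCAM, with KRT5 at 0. The mitochondrial share of the counts was 3.18% to 3.71% in WT, against 5.07% to 6.24% in Delta-TRRAP. The part of these differences in the results below was not tested.

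Of the 8 members tested, 5 were lower in Delta-TRRAP, 1 was higher, and 2 did not pass an adjusted p of 0.01 in the quasi-likelihood F test of edgeR with Benjamini-Hochberg adjustment over all genes tested. The same rule called 27.6% of all genes tested lower, 30.7% higher and 58.3% in either direction, so a change as such was common in these cells. Adding a fold change of at least 2, as the study did, left 1 member, H2AFJ, which was higher, against 22.6% of all genes (16.5% higher and 6.08% lower). H2AFJ had 0 reads in every WT library and entered the test through Delta-TRRAP, so a call as lower was not open to it. The 5 members that fell did so by less than 2-fold, and in each of the 5 every Delta-TRRAP library lay under every WT library. Of all genes tested, 33.7% lay lower without overlap, 37.4% higher and 71.1% in either direction. All these shares, also where they recur below, cover every gene averaging 5 or more normalized counts. According to the study, its down-regulated genes tended to be highly expressed in WT. Shares among genes as abundant as the members or the list genes were not computed. Values below are normalized counts, which are read counts scaled for library size and composition. They do not show whether a cell held less of an RNA or whether fewer cells held it.

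**Figure D1:**
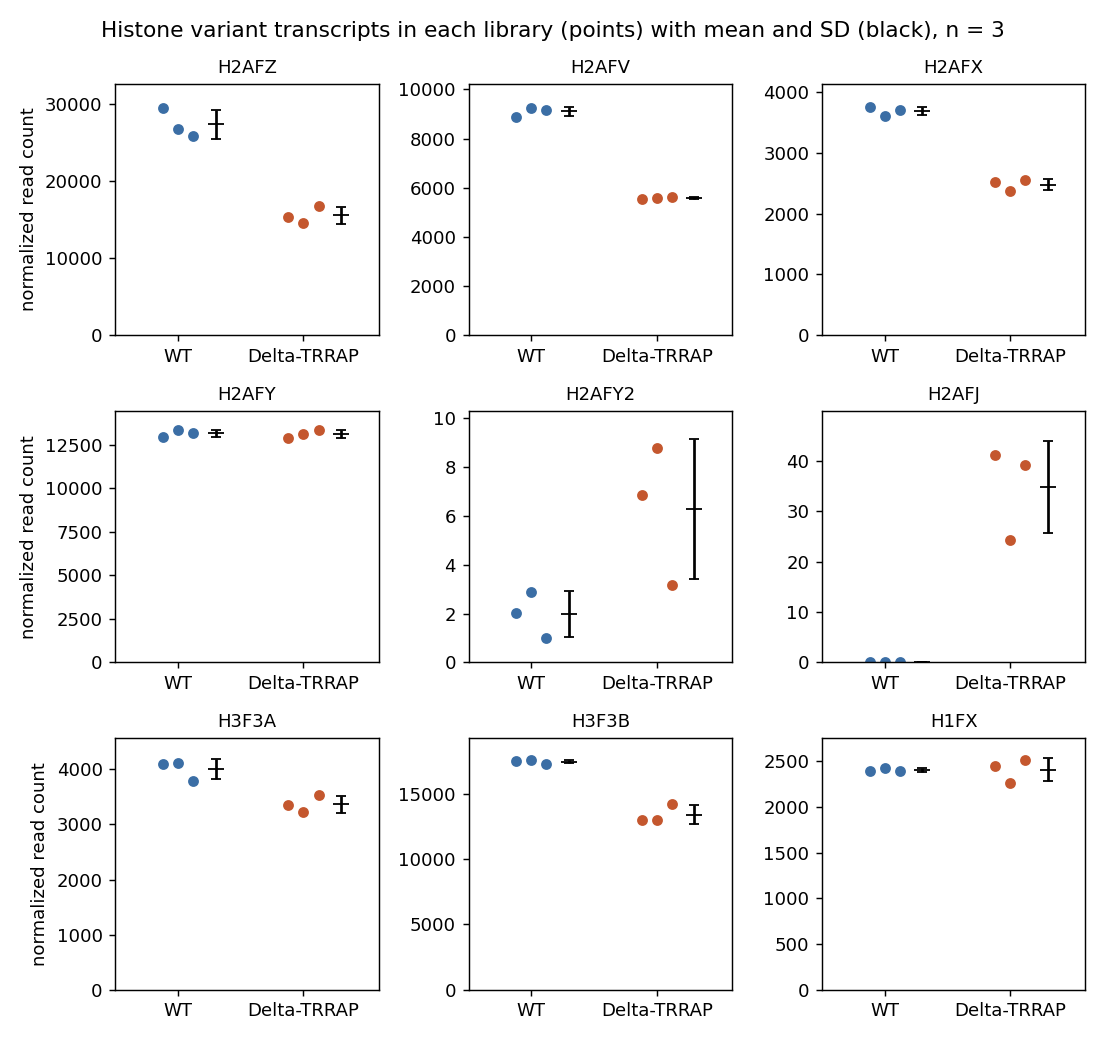
Normalized read count of 9 members in the 3 WT and 3 Delta-TRRAP libraries (1 point per library, vertical axes from 0 and different in each panel), with the mean and SD in black. The points of H2AFZ, H2AFV, H2AFX, H3F3A and H3F3B lie lower in Delta-TRRAP without overlap, those of H2AFY and H1FX overlap, and H2AFJ rises from 0.

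The largest fall among the members was in the pair of genes for H2A.Z, the variant that marks promoters and enhancers. H2AFZ (H2AZ1, ENSG00000164032.12, GRCh38 chr4:99948086-99950355, minus strand) had normalized counts of 29527, 26761 and 25934 in WT and of 15436, 14617 and 16817 in Delta-TRRAP. The groups were apart, and Delta-TRRAP stood at 57.0% of the WT mean. The log2 fold change was -0.81 ± 0.06 (SE) at an adjusted p of 2.2e-08 in edgeR. H2AFV (H2AZ2, ENSG00000105968.18, chr7:44826791-44848087, minus strand) encodes the second form of H2A.Z, whose protein is nearly the same. Its normalized counts were 8893, 9256 and 9150 in WT and 5540, 5598 and 5628 in Delta-TRRAP. Delta-TRRAP stood at 61.4% of WT, with a log2 fold change of -0.70 ± 0.05 (SE) and an adjusted p of 4.11e-09 in edgeR. Both genes thus fell by a similar measure, and the spread among the Delta-TRRAP libraries was small in H2AFV.

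The summed normalized count of H2AFZ and H2AFV was 35084 to 38421 in WT, against 20215 to 22446 in Delta-TRRAP. H2AFZ made 73.9% to 76.9% of that sum in WT, against 72.3% to 74.9% in Delta-TRRAP, ranges that overlap. The log2 ratio of H2AFZ to H2AFV, which does not depend on the scaling of the libraries, was 1.59 ± 0.12 (SD, n = 3) in WT, against 1.48 ± 0.10 (SD, n = 3) in Delta-TRRAP, a difference of -0.11 with a two-sided exact permutation p of 0.4 (0.533 after Benjamini-Hochberg adjustment over 4 gene pairs). With 3 libraries against 3 that test cannot go below 0.1.

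Reads of the 2 H2A.Z genes can be told apart because the genes differ at many bases, most of them synonymous. Over 387 coding bases they shared 80.36% of the letters. The first 60 bases after the start codon (GENCODE, GRCh38, coding strand) are shown to illustrate this, with capitals in H2AFV where it differs from H2AFZ, at 13 bases.
H2AFZ, chr4:99949681-99949740: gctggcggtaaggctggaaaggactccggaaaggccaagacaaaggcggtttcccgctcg
H2AFV, chr7:44843295-44843354: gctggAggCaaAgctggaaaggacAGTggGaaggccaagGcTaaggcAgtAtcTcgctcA
Processed pseudogenes named after H2AFZ (6) held 0.13% of its counts and the pseudogene of H2AFV (1) held 0.143%.

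H2AFX (H2AX, ENSG00000188486.3, chr11:119093874-119095465, minus strand) encodes the variant that is phosphorylated around DNA double-strand breaks. Its normalized counts were 3752, 3609 and 3695 in WT and 2515, 2368 and 2544 in Delta-TRRAP. No library of one group reached the range of the other. Delta-TRRAP stood at 67.2% of WT, with a log2 fold change of -0.57 ± 0.05 (SE) and an adjusted p of 7.47e-08 in edgeR.

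H2AFX is the member that resembles the replication-dependent genes, since it has a short mRNA with a histone stem-loop as well as a longer polyadenylated one. A search on the sense strand of all GENCODE transcripts for the histone stem-loop found it in 65 of 19702 protein-coding genes, of which 61 carried a replication-dependent histone symbol, and among the members in 1 of 10. In H2AFX it began at base 553 of the transcript, 50 bases after the stop codon. The site is printed with the stem-loop in capitals and 5 bases on each side. The letters allowed in the loop were widened after the sequence of H2AFX had been seen.
H2AFX: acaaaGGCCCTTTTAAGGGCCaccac
The hexamer AATAAA, the usual poly(A) signal, lay in the last 60 bases of the canonical transcript of 6 of 10 members. The libraries were made from poly(A) RNA, a step that selects against the stem-loop form of H2AFX mRNA. The genes named HIST (89 genes) were summed by name, and variants such as HIST1H1T are among them. Their summed normalized count was 27109 to 29148 in WT, against 98819 to 103060 in Delta-TRRAP, the opposite direction to H2AFX. The poly(A) step selects against stem-loop mRNAs of these genes too, so the sum covers only RNA that passed it. The difference was not tested as a sum.

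H3F3A and H3F3B are the genes for H3.3, the H3 variant placed at active genes and at heterochromatic repeats. H3F3B (H3-3B, ENSG00000132475.10, chr17:75776434-75785893, minus strand) had normalized counts of 17524, 17547 and 17299 in WT and of 12953, 13023 and 14211 in Delta-TRRAP. Its log2 fold change was -0.38 ± 0.05 (SE) at an adjusted p of 9.66e-06 in edgeR, and Delta-TRRAP stood at 76.7% of WT. H3F3A (H3-3A, ENSG00000163041.11, chr1:226061851-226072019, plus strand) had normalized counts of 4091, 4124 and 3796 in WT and of 3348, 3230 and 3534 in Delta-TRRAP. The groups of both genes were apart. H3F3A changed least among the members that fell, with Delta-TRRAP at 84.2% of WT and a log2 fold change of -0.25 ± 0.05 (SE), adjusted p 0.000799 in edgeR. Its call was lost where libraries were scaled by their size alone (log2 fold change -0.12, adjusted p 0.0723) or where only genes with a mean of at least 50 were tested (-0.18, adjusted p 0.0115), both in edgeR.

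H3F3B made 81.0% to 82.0% of the summed H3.3 counts in WT, against 79.5% to 80.1% in Delta-TRRAP. The log2 ratio of H3F3A to H3F3B was -2.13 ± 0.05 (SD, n = 3) in WT, against -1.99 ± 0.03 (SD, n = 3) in Delta-TRRAP. The difference of 0.13 was seen in all 3 libraries of each group, and its exact permutation p of 0.1, the smallest the design allows, became 0.2 after adjustment over 4 pairs.

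The H3F3A count is uncertain because of a near-identical copy. H3F3AP4 (now H3P6, chr2:174719908-174720318, plus strand), which GENCODE listed as a pseudogene of H3F3A, has 411 bases identical to the coding sequence of H3F3A at all 411 positions. Reads that fit both places equally were discarded in the alignment. From which of these genes the remaining reads came was not resolved. Reads placed at H3F3AP4 were 84.2% as many as those at H3F3A over the 6 libraries. They were also lower in Delta-TRRAP, with normalized counts of 3474, 3432 and 3291 in WT and 2815, 2724 and 2894 in Delta-TRRAP (log2 fold change -0.27 ± 0.05 (SE), adjusted p 0.000163 in edgeR). With the H3F3AP4 counts added, H3F3B made 69.8% to 70.9% of the H3.3 sum in WT, against 67.8% to 68.9% in Delta-TRRAP. Adding the H3F3AP4 counts to those of H3F3A gave a log2 fold change of -0.26 ± 0.05 (SE) at an adjusted p of 0.000389 in edgeR. H3F3B differs from H3F3A at 88 of 411 coding bases and is not caught up in this, and its pseudogenes (2) held 0.0529% of its counts. The first 60 coding bases show the identity and the difference, with capitals where H3F3B differs from H3F3A, at 13 bases.
H3F3A, chr1:226064352-226064411: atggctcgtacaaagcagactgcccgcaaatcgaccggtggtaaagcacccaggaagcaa
H3F3AP4, chr2:174719908-174719967: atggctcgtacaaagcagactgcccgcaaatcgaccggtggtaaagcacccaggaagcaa
H3F3B, chr17:75779115-75779174: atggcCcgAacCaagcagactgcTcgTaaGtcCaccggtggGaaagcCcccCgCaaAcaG

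MacroH2A, which carries a large extra domain and is frequent on silent chromatin, comes from H2AFY and H2AFY2. H2AFY (MACROH2A1, ENSG00000113648.16, chr5:135334381-135399914, minus strand) had normalized counts of 12939, 13339 and 13189 in WT and of 12905, 13141 and 13335 in Delta-TRRAP. The ranges overlapped and the log2 fold change was -0.003 ± 0.048 (SE) at an adjusted p of 0.958 in edgeR. The sign of so small a value turned with the scaling. With library size alone it was 0.13, where the median of all genes also moved by 0.138. H2AFY2 (MACROH2A2, ENSG00000099284.14, chr10:70052544-70112282, plus strand) was hardly present, with 2, 3 and 1 reads in WT and 7, 9 and 3 in Delta-TRRAP, ranges that touch at 3, and its mean was under the minimum for the test. K562 thus held its macroH2A transcripts almost wholly as H2AFY in both groups. The log2 ratio of H2AFY to H2AFY2 was 12.8 ± 0.76 (SD, n = 3) in WT, against 11.2 ± 0.78 (SD, n = 3) in Delta-TRRAP (exact permutation p = 0.1, adjusted 0.2), and it rests on these few reads.

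H2AFJ (H2AJ, ENSG00000246705.4, chr12:14774405-14778002, plus strand) encodes an H2A variant close to the canonical H2A that is known to gather in senescent cells. No read was counted in any of the 3 WT libraries. Delta-TRRAP libraries held 42, 25 and 37 reads, or 41.2, 24.4 and 39.1 normalized counts. The level in Delta-TRRAP was at least 34.9-fold higher than the 3 reads over the group that a count of 0 allows, with an adjusted p of 5.33e-07 in edgeR. The gene entered the test through Delta-TRRAP alone, since a gene at 0 in both groups would not have been tested. Its rise stayed small in amount, well under every other member tested. Other genes within 1 Mb of H2AFJ were often higher too: among 12 tested genes 9 passed as higher, against 30.7% of all genes, with a median log2 fold change of 1.14. Around the other 7 members tested, the median of the neighbouring genes lay between -0.12 (H3F3A) and 0.39 (H1FX).

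Linker histones bind the DNA that enters and leaves the nucleosome. The linker histone gene H1FX (H1-10, ENSG00000184897.6, chr3:129314771-129316286, minus strand) had normalized counts of 2400, 2429 and 2394 in WT and of 2448, 2267 and 2516 in Delta-TRRAP. The Delta-TRRAP libraries spread around the WT values, and the log2 fold change was 0.001 ± 0.053 (SE) at an adjusted p of 0.986 in edgeR.

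**Figure D2:**
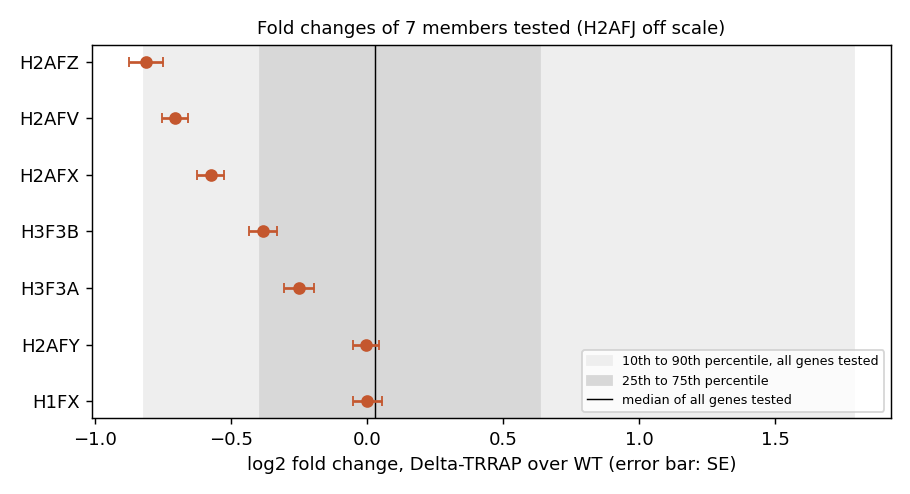
Log2 fold change of 7 members (points, with SE bars) on a horizontal axis of Delta-TRRAP over WT, over shaded bands that hold the middle of all genes tested. H2AFZ lies at -0.81, near the 10th percentile of all genes (-0.82), H2AFV and H2AFX lie below the 25th percentile (-0.39), and H2AFY and H1FX lie near the median (0.03).

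Set against all genes tested, whose log2 fold changes ran from -0.82 at the 10th percentile to 1.79 at the 90th, 7 members fell into 3 levels, and H2AFJ lay above the 90th percentile. H2AFZ, H2AFV and H2AFX lay between the 10th and the 25th percentile (-0.39). H3F3B and H3F3A lay between the 25th percentile and the median of 0.03. H2AFY and H1FX lay next to the median, as the plot of fold changes shows. The members together summed to 75461 to 79132 normalized counts in WT, against 54283 to 58631 in Delta-TRRAP, most of it H2AFZ, H3F3B and H2AFY.

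Per length, which allows genes to be compared, H2AFZ was the most abundant variant transcript in both groups. With the length of the merged exons, the mean normalized count per kilobase in WT was 12070 for H2AFZ, 2846 for H3F3B, 2315 for H2AFX, 1588 for H1FX, 1299 for H2AFV, 1046 for H3F3A and 773 for H2AFY. H2AFY2 (0.132) was far below, and H2AFJ was at 0. Neighbours in this order of 9 members did not overlap between libraries of WT. In Delta-TRRAP H2AFZ still led with 6883 per kilobase, followed by H3F3B with 2184. H1FX (1590) and H2AFX (1555) then overlapped, and H2AFV (798) came below H3F3A (881). With the reads of its copy H3F3AP4 added, H3F3A stood at 1935 per kilobase in WT, place 4 in the order, and at 1616 in Delta-TRRAP, place 3, so its place rests on how the reads of the copy are assigned. The order depends on which exons are counted as the gene, since H2AFY has many annotated exons that its main transcript lacks: with the canonical transcript as length, H2AFY came after H2AFZ in both groups, with 6863 per kilobase in WT, against 6848 in Delta-TRRAP, against 31650 and 18040 for H2AFZ.

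**Figure D3:**
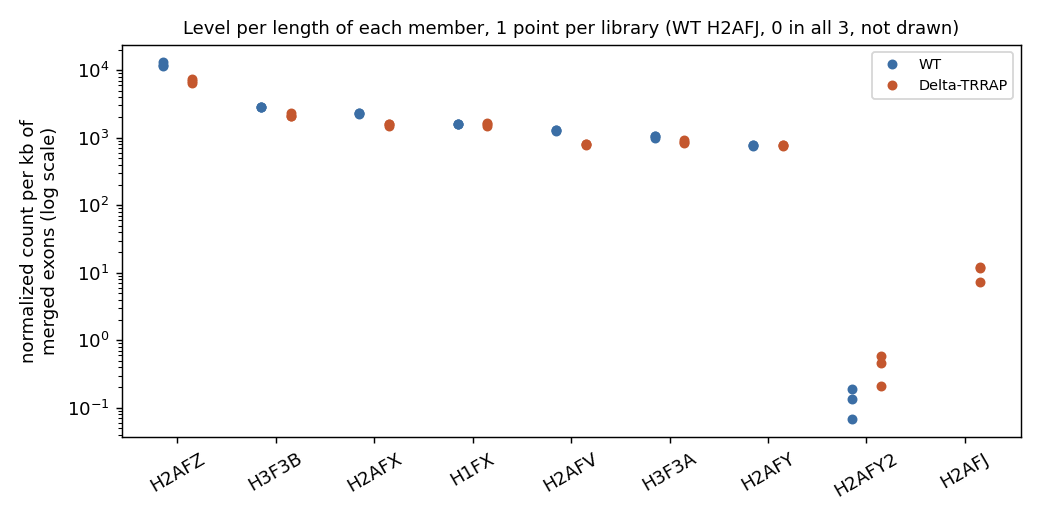
Normalized count per kilobase of merged exons (log scale) of 9 members in each WT and Delta-TRRAP library, ordered by the WT mean, with 1 point per library. H2AFZ stands above all other members in both groups, with means of 12070 and 6883, and H2AFY2 and H2AFJ lie far below the rest, where WT H2AFJ is at 0 and is not drawn.

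Promoter sequences were compared next. RefSeq (GRCh38.p14) windows of 250 bases before to 50 bases after the start were compared for 9 members. The letters CCAAT on either strand, the box bound by NF-Y and common in histone promoters, were found in 6 of 9 members, against 34.61% of 35116 windows of the same length. Counted per gene, as the members were, 42.8% of the tested genes with a window held at least 1 match. H2AFV, H2AFX and H3F3B held 4 matches each, H2AFZ and H2AFJ held 3 and H3F3A held 1. H2AFY, H2AFY2 and H1FX held none in the window used. Another RefSeq window of H2AFY held 2, and another window of H3F3A held 0. In the windows used, all 5 members that fell thus held the letters, as did H2AFJ, which rose. Among all tested genes with a window, 32.6% were lower where the window held no match, 33.9% with at least 1 match and 38.2% with at least 3. TATAAA was found in 4 of 9 members (H2AFZ, H2AFX, H3F3B and H1FX) against 11.53% of windows, beginning 29 to 31 bases before the start in each. TTTNNCGC, a form of the E2F site, was found in 1 of 9 (6.886% of windows), the E box CACGTG in 0 of 9 (7.256%) and the GC box GGGCGG in 5 of 9 (44.95%), each searched on both strands. The shares for these sequences and for TATAAA count windows, of which a gene can have several. Unlike the share for CCAAT, they were not computed per gene.

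The bases before the start of 5 members are printed on their own strand, 5′ to 3′, to show the spacing of these letters in members that fell (H2AFZ, H2AFV, H2AFX), in the one that rose (H2AFJ) and in one whose groups overlapped (H1FX). Capitals mark CCAAT, its reverse complement ATTGG and TATAAA. Each runs from 250 bases to 1 base before the RefSeq start, except H2AFZ, printed to 81 bases before the start, where a GENCODE exon of the gene begins. Its last CCAAT match and its TATAAA lie past that point. The window of H2AFJ overlaps an exon of ENSG00000289909.
H2AFZ, chr4:99950356-99950525: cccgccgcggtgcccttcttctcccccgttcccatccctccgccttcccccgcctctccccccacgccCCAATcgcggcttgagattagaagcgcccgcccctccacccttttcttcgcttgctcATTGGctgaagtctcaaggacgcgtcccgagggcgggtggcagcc
H2AFV, chr7:44848088-44848337: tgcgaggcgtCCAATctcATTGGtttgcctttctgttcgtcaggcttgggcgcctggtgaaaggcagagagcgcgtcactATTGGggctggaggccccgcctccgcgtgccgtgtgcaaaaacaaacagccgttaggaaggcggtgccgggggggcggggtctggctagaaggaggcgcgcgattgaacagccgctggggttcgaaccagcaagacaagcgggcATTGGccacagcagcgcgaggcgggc
H2AFX, chr11:119095466-119095715: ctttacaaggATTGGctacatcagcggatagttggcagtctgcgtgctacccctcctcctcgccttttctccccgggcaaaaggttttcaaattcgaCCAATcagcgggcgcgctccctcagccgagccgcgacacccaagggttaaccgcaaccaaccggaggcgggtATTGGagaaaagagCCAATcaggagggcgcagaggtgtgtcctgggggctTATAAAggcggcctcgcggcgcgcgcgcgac
H2AFJ, chr12:14774155-14774404: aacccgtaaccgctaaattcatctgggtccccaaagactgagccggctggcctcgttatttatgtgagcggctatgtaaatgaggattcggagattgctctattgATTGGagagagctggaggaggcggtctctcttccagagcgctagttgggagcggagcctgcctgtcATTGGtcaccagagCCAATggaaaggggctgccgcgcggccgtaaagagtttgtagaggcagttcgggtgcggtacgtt
H1FX, chr3:129316287-129316536: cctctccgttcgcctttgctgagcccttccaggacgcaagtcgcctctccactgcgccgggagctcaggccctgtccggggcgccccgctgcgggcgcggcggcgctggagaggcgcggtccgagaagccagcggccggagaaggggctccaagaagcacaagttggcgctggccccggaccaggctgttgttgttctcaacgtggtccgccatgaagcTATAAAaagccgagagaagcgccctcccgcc
In H2AFX and H2AFJ, 2 of the matches on opposite strands lie at the same spacing near the start, at bases -81 and -67 in H2AFX and at -79 and -65 in H2AFJ. A match is a description of letters and no sign that a factor binds.

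The genes that put H2A.Z into chromatin or take it out were lower more often than they were higher. Of 11 such genes, all tested, 7 passed as lower and 1 as higher, with a median log2 fold change of -0.41 (all genes: 0.03). By the same rule 27.6% of all genes passed as lower and 30.7% as higher. RUVBL2, a AAA-ATPase shared by TIP60, SRCAP and INO80, fell from 10455, 10489 and 10288 in WT to 5786, 5379 and 5278 in Delta-TRRAP, a log2 fold change of -0.93 ± 0.05 (SE), adjusted p 4.44e-10 in edgeR. YEATS4, the acetyl-lysine reader of TIP60 and SRCAP, had a log2 fold change of -0.71 ± 0.06 (SE). ANP32E, the chaperone that removes H2A.Z, had -0.64 and was chosen for naming after its value was seen. DMAP1, a subunit of TIP60 and SRCAP, went the other way with 0.47 ± 0.06 (SE), adjusted p 2.5e-06 in edgeR, and its libraries did not overlap. The next gene down among those that passed was ACTL6A, an actin-related subunit, with -0.38 ± 0.05 (SE). SRCAP, ZNHIT1 and INO80 did not pass, and the libraries of each overlapped. Their log2 fold changes were 0.085, -0.021 and -0.248, with adjusted p of 0.569, 0.758 and 0.012 in edgeR. These genes were named after their values were seen.

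The genes that place H3.3 made a list of 7. Of these 7 tested genes for HIRA complex and DAXX-ATRX proteins, 0 passed in either direction by edgeR (58.3% of all genes did), and also 0 by DESeq2 and by limma-voom, while 1 (DAXX) had an unadjusted p under 0.05 in edgeR. Without Delta-TRRAP replicate 3, 1 gene of the list passed as lower. Their log2 fold changes lay between -0.14 (HIRA) and 0.03 (UBN1), named after their values were seen, with a median of -0.06, and 5 of 7 were negative. In DAXX and ASF1A every Delta-TRRAP library lay under every WT library. The difference between this list and the H2A.Z list was not tested.

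Among 11 general histone chaperones 6 passed as lower and 1 as higher, with a median of -0.22. The share passing as lower was 54.5%, against 27.6% of all genes. SUPT16H, of the FACT complex that loosens nucleosomes for polymerase, had a log2 fold change of -0.60 ± 0.06 (SE), and NASP, a chaperone of H3 and H4, had -0.50 ± 0.05 (SE). NAP1L4, a chaperone of H2A and H2B, fell least among the 6, with -0.22 ± 0.05 (SE). SUPT6H, a histone chaperone of transcription elongation, had 0.29 ± 0.08 (SE) with an adjusted p of 0.00453 in edgeR, though its libraries overlapped and 0 genes of the list passed as higher without WT replicate 1 or 2 or Delta-TRRAP replicate 1 or 2, or with the replicate number as a block.

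Around H2AFX, 8 genes that phosphorylate H2AX or read that mark were tested. Of these, 3 passed as lower and 1 as higher, with a median of -0.27. The lower genes were 37.5% of the list, against 27.6% of all genes. In either direction 4 of 8 passed, against 58.3% of all genes, so a change was no more frequent here than elsewhere. ATM, the kinase that phosphorylates H2AX at breaks, had normalized counts of 3683, 3377 and 3765 in WT and of 2023, 2356 and 2081 in Delta-TRRAP, a log2 fold change of -0.74 ± 0.06 (SE), adjusted p 5.99e-08 in edgeR. RNF168, a ubiquitin ligase of the same response, had -0.47 ± 0.05 (SE). ATR, the kinase of stalled replication forks, had -0.37 ± 0.08 (SE). MDC1, which binds the phosphorylated H2AX, had 0.30 ± 0.09 (SE) with an adjusted p of 0.00941 in edgeR, and its libraries overlapped. Its call was not kept by limma-voom, with the replicate number as a block, or without WT replicate 1 or 2 or Delta-TRRAP replicate 1 or 2. Without Delta-TRRAP replicate 2 the list had 6 genes passing as lower in place of 3.

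CENPA, the H3 variant of centromeres, and its deposition genes were also mostly lower, with a median of -0.38. Of these 5 genes 4 passed as lower, CENPA among them, against 27.6% of all genes. As higher 0 passed (0 also at an unadjusted p under 0.05, by DESeq2 and by limma-voom). HJURP did not pass (log2 fold change -0.065, adjusted p 0.274 in edgeR) and its libraries overlapped. It was chosen for naming after its value was seen. CENPA had a log2 fold change of -0.81 ± 0.06 (SE), the same size as H2AFZ, and MIS18A, which licenses deposition, had -0.53 ± 0.07 (SE). OIP5, of the same complex as MIS18A, had -0.38 ± 0.07 (SE). Of 13 other histone variant genes, most of them expressed in testis, 3 were abundant enough to be tested: H2BFWT (log2 fold change 3.56 ± 0.46, SE) and HIST1H1T (2.10 ± 0.45, SE) passed as higher, at 19.5 to 28.4 and 10.8 to 19.5 normalized counts in Delta-TRRAP. Both entered the test through Delta-TRRAP, with 0.9593 to 4.053 and 1.919 to 6.105 normalized counts in WT, so a direction other than higher was hardly open to them. H3F3C did not pass.

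Genes of S phase were lower too, with 13 of 18 passing as lower and 1 as higher and a median of -0.33. Those passing as lower made 72.2% of the list, against 27.6% of all genes. CCNE1, which drives entry into S phase, had a log2 fold change of -1.22 ± 0.05 (SE), and MCM4, of the replicative helicase, had -0.75 ± 0.05 (SE). MCM5, of the same helicase, had -0.21 ± 0.06 (SE). These genes moved with H2AFZ, H2AFV, H2AFX and CENPA, and their part in those values was not tested.

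**Figure D4:**
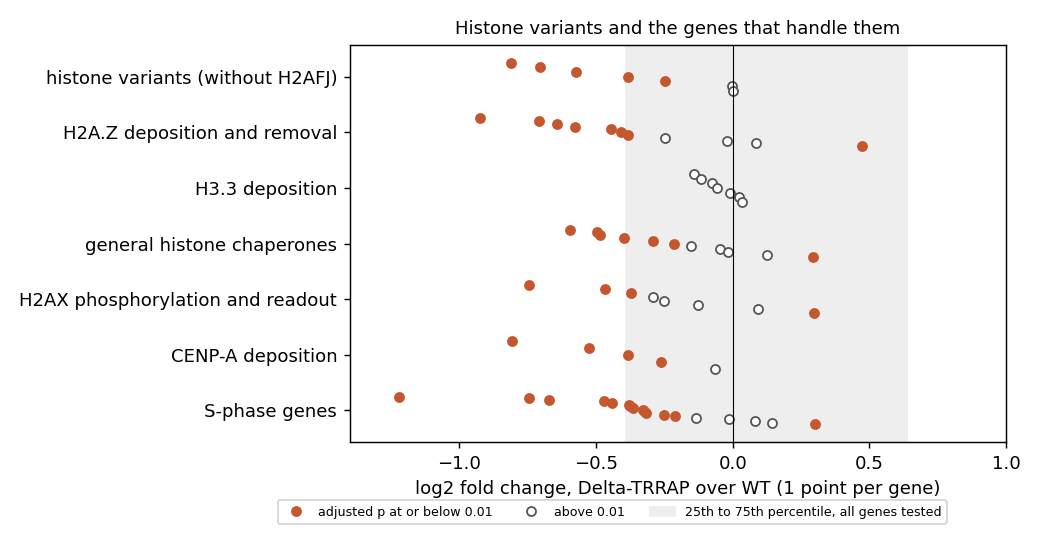
Log2 fold change of Delta-TRRAP over WT (horizontal axis) of the tested genes of the histone variants and of 6 related lists (rows). H2AFJ, which rose (8.127), is not drawn. Points are filled where the adjusted p was at or below 0.01 and open where it was above. The H3.3 deposition genes are all open and lie between -0.14 and 0.03, while 7 of 11 H2A.Z deposition and removal genes are filled on the lower side.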

How the data were processed

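Poly(A) RNA of 6 K562 libraries was analysed, 3 WT and 3 Delta-TRRAP, with groups and replicate numbers taken from the sample titles. The authors deposited unnormalized counts of reads per gene: uniquely mapped reads, aligned to hg38 with STAR, were counted with htseq-count (HTSeq 2.0.2) in reverse-stranded union mode on GENCODE v32. Genes on the opposite strand of a member therefore do not share its reads. The depth was 35076835 to 42616061 counts per library. Counting error is small for the abundant members, and large for H2AFY2 and H2AFJ.

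Counts were tested in R 4.3.3 with edgeR 4.0.16 (TMM, quasi-likelihood F test, with group as sole factor). The test covered 19114 of 34998 genes with a count, those averaging 5 or more normalized counts, with Benjamini-Hochberg adjustment over all of them. A gene passed at an adjusted p of 0.01 or less, and was called changed with a fold change of at least 2 in addition, after the thresholds of the study, which used DESeq2. The test was checked on simulated data with known changes. To normalize a count, it was divided by its library's TMM-adjusted size, itself set relative to the other libraries. The study describes the RNA-seq libraries of a group as biological replicates of a clonal line, so p-values measure the spread within that line. Members, gene lists and alternatives were chosen with earlier results of these data known. The rule named all members, with EP400 as the targeted gene and, from each list, the 2 lowest and the 2 highest genes past the adjusted p; other genes are marked as chosen after their values were seen. Of these, 1 member and 2 list genes are not reported here.

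Positions, lengths and transcripts came from GENCODE v44 on GRCh38. Paralogue ratios were tested with a two-sided exact permutation test. Alternatives were DESeq2 1.42.0, limma-voom (limma 3.58.1), other scalings, filters, thresholds and lengths, a replicate block and leaving out each library. The authors also deposited normalized signal, in which 3 columns of per-sample values were not used, and a table of their own comparison with fold changes and p-values. Neither table was used.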

Additional observations from a re-analysis of the deposited data

How the results depend on the processing

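The falls of H2AFZ, H2AFV, H2AFX and H3F3B kept their direction and their side of the threshold under every alternative that gave them a value. H2AFJ passed as higher wherever it was tested, but with 0 reads in every WT library its direction could not turn. It was not tested with a minimum mean of 50. Of 111 alternative fold changes of members, 96 kept direction and side, 2 lost the call and 13 turned sign. H3F3A lost its call with library size alone (-0.12, adjusted p 0.0723) and with a minimum mean of 50 (-0.18, adjusted p 0.0115). Signs turned in H2AFY and H1FX, which were near 0 from the start. H2AFY was 0.13 with library size alone and 0.0696 with a minimum mean of 50, and -0.0224 to 0.0046 with a library left out. H1FX was -0.0075 with DESeq2, -0.0003 with limma-voom, -0.0077 with RLE size factors, -0.0226 with no filter and -0.0322 to 0.0492 with a library left out. Library size alone shifted the median of all genes by 0.138.

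A minimum mean of 50 left 1964 genes called in place of 4322, 0 members higher, 0 members at 2-fold and 0 other histone variant genes higher, since low genes were not tested. A 1.5-fold threshold gave 6750 genes and 3 members. Higher genes numbered 2 among general chaperones, 2 around H2AX and 3 in S phase both with library size alone and with that minimum. Around H2AX, limma-voom gave 0 higher, and no filter gave 5 lower. With a library left out, the H2AX genes numbered 3 to 6 lower and 0 to 1 higher, general chaperones 0 to 1 higher, and H3.3 deposition 0 to 1 lower. The order per kilobase changed for 4 members with the longest transcript for 5 with the canonical one and for 3 with H3F3AP4 counts added to H3F3A, the last 2 chosen after seeing the data. The cause of the other shifts was not tested.

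Deviations of same-numbered libraries correlated at -0.03 to -0.01, and those of differently numbered ones at -0.04 to 0.06. No pairing by replicate number was thus visible, though so few libraries cannot show whether the cultures were paired. With the replicate block 4184 genes were called and 5 members were lower, H2AFZ at -0.81 and H3F3A at -0.25 (adjusted p 0.00422), while 0 general chaperones and 0 H2AX genes were higher. H2AFY2 and H2AFJ are limited by depth, with 9 reads or fewer per library for H2AFY2.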
